A study of Mus musculus with 2 samples.

Results

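The 10 genes described here encode chains of collagen IV (Col4a1 to Col4a6) and of laminin (Lama5, Lamb1, Lamb2 and Lamc1), the 2 polymers that basement membranes are built on. They were chosen by symbol from the 32285 genes of the feature list, and all 10 were found. Their unique molecular identifiers (UMIs, tags that let each captured RNA molecule be counted once) were summed in proximal tubule (PT), distal tubule, podocyte, endothelial (EC) and stromal cells of postischemic kidney tissue from 2 mice. Both were male C57BL/6 mice aged 9 weeks, and tissue was taken 24 h after bilateral renal ischemia-reperfusion injury. The control mouse received saline and the other received JPI-289, an inhibitor of the DNA repair enzyme PARP-1, at 100 mg/kg into the peritoneal cavity immediately before reperfusion. No uninjured kidney is among these libraries. Each group was 1 mouse and 1 single-cell library, so a difference between the libraries has no replicate check, and treatment, animal and library cannot be told apart.

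A basement membrane is a sheet of matrix under epithelium and endothelium. Collagen IV chains assemble in the cell as trimers, and the identity of the chains decides which network forms. Col4a1 and Col4a2 give the chains found under nearly all epithelia and vessels, whereas Col4a3, Col4a4 and Col4a5 give the network of the mature glomerular basement membrane and of parts of the tubule, which is made by podocytes and tubular cells and is defective in Alport syndrome. Laminins are trimers of an alpha, a beta and a gamma chain. Lama5 is the main alpha chain and Lamc1 the main gamma chain of adult kidney, and Lamb2 takes the place of Lamb1 as the glomerulus matures.

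The collagen IV genes lie head to head in pairs on opposite strands (GRCm38, GENCODE vM21). Col4a4 (ENSMUSG00000067158) runs from 82448423 to 82586849 on the minus strand of chromosome 1 and Col4a3 (ENSMUSG00000079465) from 82586921 to 82722059 on the plus strand, which leaves 71 bases between their starts. Col4a1 (ENSMUSG00000031502, chromosome 8, 11198423 to 11312826, minus strand) and Col4a2 (ENSMUSG00000031503, chromosome 8, 11312805 to 11449287, plus strand) overlap by 22 bases at their 5′ ends. Col4a6 (ENSMUSG00000031273, chromosome X, 141165403 to 141474076, minus strand) and Col4a5 (ENSMUSG00000031274, chromosome X, 141475385 to 141689234, plus strand) are 1308 bases apart. The laminin genes stand singly, with Lama5 (ENSMUSG00000015647) on chromosome 2 from 180176373 to 180225859, Lamb1 (ENSMUSG00000002900) on chromosome 12 from 31265234 to 31329644, Lamb2 (ENSMUSG00000052911) on chromosome 9 from 108479736 to 108490530 and Lamc1 (ENSMUSG00000026478) on chromosome 1 from 153218922 to 153332786. The bases between Col4a3 and Col4a4 are shown because these genes had the largest differences between the libraries among the members, and the 71 bases before Col4a5 and before Col4a6 are shown beside them because the partners of that pair differed in level. All are from RefSeq on GRCm38.p6, whose starts of Col4a5 and Col4a6 are not the same as those above. They read 5′ to 3′, and capitals mark the letters CACCC or their reverse complement GGGTG.
Col4a3-Col4a4 interval (chr1:82586850-82586920, minus strand, 69.0% G or C): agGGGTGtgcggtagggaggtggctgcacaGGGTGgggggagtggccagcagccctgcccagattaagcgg
Col4a5 upstream (chrX:141475299-141475369, plus strand, 56.3% G or C): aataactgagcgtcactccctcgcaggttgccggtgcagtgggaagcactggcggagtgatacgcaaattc
Col4a6 upstream (chrX:141474096-141474166, minus strand, 54.9% G or C): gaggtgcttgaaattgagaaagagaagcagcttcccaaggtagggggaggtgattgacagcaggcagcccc
On both strands, the letters TATAAA were in none of the 3 windows, and they were in 4.4% of the 71-base windows before 32851 listed starts. The letters CCAAT were likewise in none of the 3, and in 13.3% of all windows. The GC box letters GGGCGG were also in none of them, and in 20.7% of all windows. CACCC, which was added to the search after the bases had been read, matched the Col4a3-Col4a4 interval 2 times and was in 20.3% of all windows, and neither of the other windows held it. Promoter sequences were listed for 8 of the 10 genes, with Col4a3 and Lamc1 missing.

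Cell classes were built by clustering without the 10 genes and without 49 other basement membrane genes, and clusters were named from marker genes. The classes held 1792 control and 1638 JPI-289 PT-like cells, 539 and 703 distal tubule-like cells, 13 and 51 podocyte-like cells, 505 and 565 EC-like cells, and 155 and 99 stroma-like cells, of 3748 and 5022 cells kept. Their summed depths ran from 25406 UMIs in the control podocyte-like cells to 8110532 in the control PT-like cells. In each class nearly all markers were present (at least 3 UMIs), from 9 of 10 podocyte markers in the JPI-289 library, where Clic3 was at 0, to 16 of 16 PT markers in both. A cluster was left unnamed if its 10 leading genes held more markers of another class than of its own, so those genes are no separate check. EC-like cluster 4 and lymphocyte-like cluster 22 had 0 markers of their own class among them. Macrophage-like cluster 15 had 1 of its own and 1 of another class. PT-like cluster 0, with 986 of the 1638 JPI-289 PT-like cells, had 1, Krt20. That gene is from the list of injured PT markers, which were counted with the PT markers here. The PT marker score of cluster 0 was 0.896, where 0.75 was needed for a name. The PT-like clusters were nearly all from 1 library each, with clusters 2, 3, 14 and 19 holding the control cells and clusters 0, 8 and 10 the JPI-289 cells. The 2 libraries shared 23 barcodes among the cells kept.

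The Col4a1-Col4a2 pair and the Col4a3-Col4a4 pair each had their own home, and the Col4a5-Col4a6 pair could not be given one. Col4a1 and Col4a2 were highest in EC-like and stroma-like cells, Col4a3 and Col4a4 in podocyte-like cells, and in control PT-like and distal tubule-like cells Col4a3 and Col4a4 each exceeded Col4a1 and Col4a2. Levels are counts per 1000000 (CPM), the UMIs of a gene scaled to 1000000 UMIs of its class, with 95% exact Poisson intervals in parentheses. The kit counts 5′ ends of molecules, so levels were not divided by transcript length. How well the 5′ end of each gene is captured and mapped was not tested, and levels of different chains are compared with that limit.

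**Figure D1:**
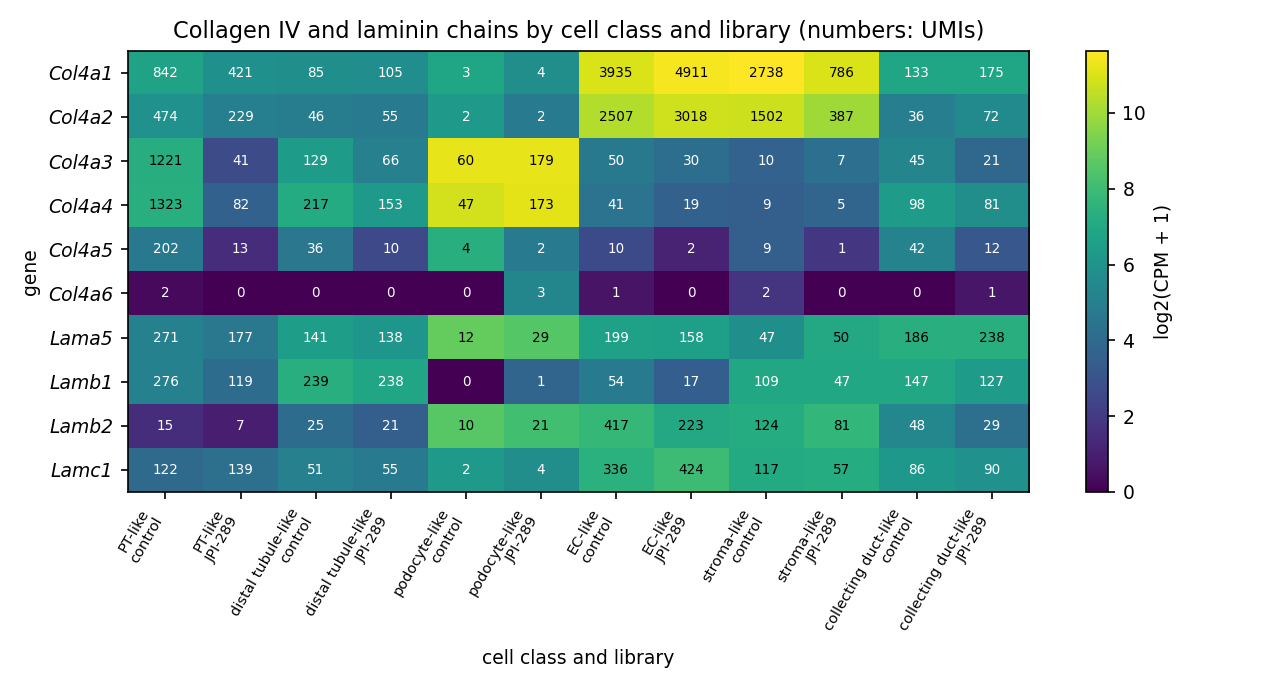
Levels of the 10 genes (rows) in 6 cell classes of the control and JPI-289 libraries (columns), with colour giving log2(CPM + 1) and the number in each cell giving the UMIs counted. Col4a1 and Col4a2 are brightest in EC-like and stroma-like cells, Col4a3 and Col4a4 in podocyte-like cells, and Col4a6 has 3 UMIs or fewer in every cell of the plot.

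Col4a1, the most abundant member, was at 3188 (3070 to 3310) CPM in control stroma-like cells and 2020 (1882 to 2167) in JPI-289 ones. In EC-like cells it was at 1996 (1934 to 2059) in the control and 2886 (2806 to 2968) with JPI-289. Stroma led endothelium in the control library and endothelium led stroma in the JPI-289 library, with intervals apart in both. In PT-like cells Col4a1 was at 104 (96.9 to 111) and 57.2 (51.9 to 63.0), in collecting duct-like cells at 113 and 114, and in distal tubule-like cells at 55.0 and 51.7. Neutrophil-like cells, which should lack these chains, had 23.0 (11.02 to 42.3) and 19.5 (13.3 to 27.7), and that gives the background level for Col4a1. Podocyte-like cells had 3 and 4 Col4a1 UMIs, too few to place them.

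Col4a2, whose chain joins that of Col4a1 in 1 trimer, had the same order of classes at the top. It was at 1272 (1222 to 1322) and 1774 (1711 to 1838) CPM in control and JPI-289 EC-like cells, and at 1749 (1661 to 1840) and 995 (898 to 1099) in stroma-like cells. Col4a1 made up 61.1% to 67.0% of the UMIs of the pair in PT-like, distal tubule-like, EC-like and stroma-like cells of both libraries. In PT-like cells that share was 64.0% (Clopper-Pearson 61.3 to 66.6) in the control and 64.8% (61.0 to 68.4) with JPI-289, so the ratio of the partners was alike where their level differed. Over 8 classes in 2 libraries (16 points that share libraries and depth), the correlation of Col4a1 with Col4a2 was 0.99.

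Col4a3 was at 2362 (1802 to 3040) CPM in control podocyte-like cells and 2336 (2006 to 2704) in JPI-289 ones. Next in the control library came PT-like cells at 150.5 (142 to 159), then distal tubule-like cells at 83.5 (69.7 to 99.2) and collecting duct-like cells at 38.4 (28.0 to 51.3), with no overlap between these neighbours. In the JPI-289 library the order changed below podocytes. Distal tubule-like cells came second at 32.5 (25.2 to 41.4), stroma-like and EC-like cells overlapped with them at 18.0 (7.23 to 37.1) and 17.6 (11.9 to 25.2), and PT-like cells were lowest of the epithelia at 5.57 (3.998 to 7.56), within the interval of neutrophil-like cells at 3.78 (1.39 to 8.23). Col4a3 in JPI-289 PT-like cells thus could not be told from background.

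Col4a4, its partner on the other strand, was at 1850 (1359 to 2460) and 2257 (1933 to 2620) CPM in control and JPI-289 podocyte-like cells. In control PT-like and distal tubule-like cells it was at 163 (154 to 172) and 140 (122 to 160), which overlap. In the JPI-289 library those classes had 11.1 (8.86 to 13.8) and 75.4 (63.9 to 88.3), which do not. Collecting duct-like cells had 83.5 (67.8 to 102) in the control and 52.9 (42.0 to 65.8) with JPI-289. EC-like and stroma-like cells stayed between 10.5 and 20.8 in both libraries, against 20.7 and 4.41 in neutrophil-like cells.

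Col4a5, the third chain of that network, was far below its partners where they were highest. Podocyte-like cells had 4 Col4a5 UMIs in the control and 2 with JPI-289 beside 60 and 179 Col4a3 UMIs. Its levels were 24.9 (21.6 to 28.6) CPM in control PT-like cells, 23.3 (16.3 to 32.3) in distal tubule-like cells and 35.8 (25.8 to 48.4) in collecting duct-like cells, and these overlap. In the JPI-289 library they were 1.77 (0.941 to 3.02), 4.93 (2.36 to 9.06) and 7.84 (4.05 to 13.7). The PT-like value lay within the interval of JPI-289 neutrophil-like cells, 1.26 (0.152 to 4.55), and so could not be told from background. Col4a6, the neighbour of Col4a5, had 10 UMIs in all control cells kept and 6 in all JPI-289 cells, so it is given as counts only. Of these, 3 were in JPI-289 podocyte-like cells.

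**Figure D2:**
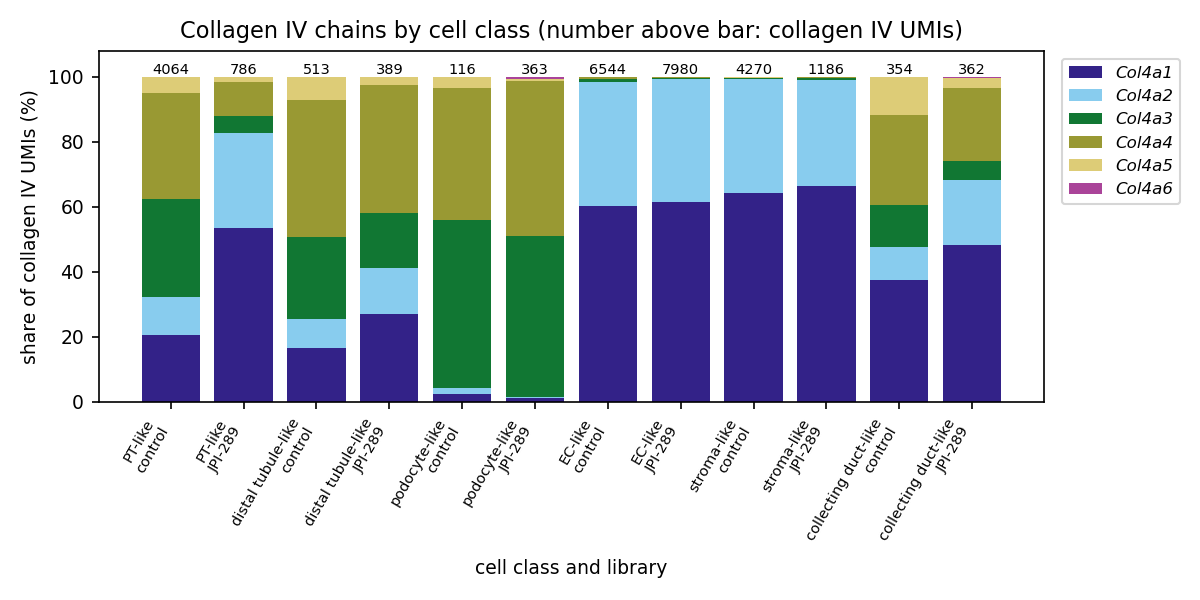
Share of the collagen IV UMIs (vertical axis, %) taken by each of the 6 chains in each cell class and library, with the number of collagen IV UMIs above each bar. Col4a3, Col4a4 and Col4a5 together fill over 95% of the podocyte-like bars and under 2% of the EC-like and stroma-like bars, and in PT-like cells they go from 67.6% in the control to 17.3% in the JPI-289 library.

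The make-up of collagen IV followed from these levels. Col4a3, Col4a4 and Col4a5 together took 95.7% (Clopper-Pearson 90.2 to 98.6) of the collagen IV UMIs of podocyte-like cells in the control and 97.5% (95.4 to 98.9) with JPI-289. They took 1.54% (1.26 to 1.87) and 0.639% (0.476 to 0.839) in EC-like cells. The tubules lay between. The share was lower with JPI-289 in the tubules and in EC-like cells. It was not lower in podocyte-like cells, nor in stroma-like cells at 0.656% and 1.10%. Neutrophil-like cells, which give the background, had 51.7% (32.5 to 70.6) of 29 UMIs and 26.3% (15.5 to 39.7) of 57. The part of background RNA in the shares was not tested. In PT-like cells the share was 67.6% (66.1 to 69.0) of 4064 UMIs in the control and 17.3% (14.7 to 20.1) of 786 UMIs with JPI-289. It was 74.5% (70.5 to 78.2) and 58.9% (53.8 to 63.8) in distal tubule-like cells, and 52.3% (46.9 to 57.6) and 31.5% (26.7 to 36.5) in collecting duct-like cells. The direction was the same in all 3 tubular classes, and the intervals of the libraries did not meet in any of them. All such intervals cover counting error only.

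Where the RNA of each chain sat in the kidney suspension shifted with it. Of all Col4a3 UMIs in cells kept, 76.2% of 1603 were in PT-like cells in the control library against 10.2% of 400 in the JPI-289 library. Podocyte-like cells held 3.7% and 44.8%. For Col4a4 the PT-like share was 71.5% of 1850 UMIs and 13.0% of 633, and for Col4a1 the EC-like share was 49.4% of 7968 and 72.7% of 6758. These shares also depend on how many cells of each class were captured.

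The comparison of the JPI-289 with the control library used the log2 ratio of CPM, with 0.5 UMIs added to each sum, for genes with at least 20 UMIs in a class over both libraries. A ratio at or past 2-fold was counted, and all genes of the class measured the same way give the background. In PT-like cells 4 of 9 measured members were at least 2-fold lower and 0 were at least 2-fold higher, where 23.5% of 11309 genes were lower and 9.13% higher. The number lower was between 3 and 7 over the alternative settings. The median log2 ratio was -0.91 over the members and -0.19 over all genes. In distal tubule-like cells 2 of 9 were lower (background 11.8% of 9305 genes) and 0 higher (background 6.04%), with all 9 ratios below 0. In EC-like cells 1 of 8 was lower (background 18.6%) and 0 higher (background 5.15%). In stroma-like cells 0 of 6 were lower (background 14.0%) and 1 was higher (background 11.9%). In podocyte-like cells 0 of 4 were lower (background 15.2% of 699 genes) and 0 higher (background 17.6%). Only in PT-like and distal tubule-like cells was the members' share of lower genes above the background share, and in both this rested on the Col4a3 to Col4a5 group, with Lamb1 as the fourth in PT-like cells.

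**Figure D3:**
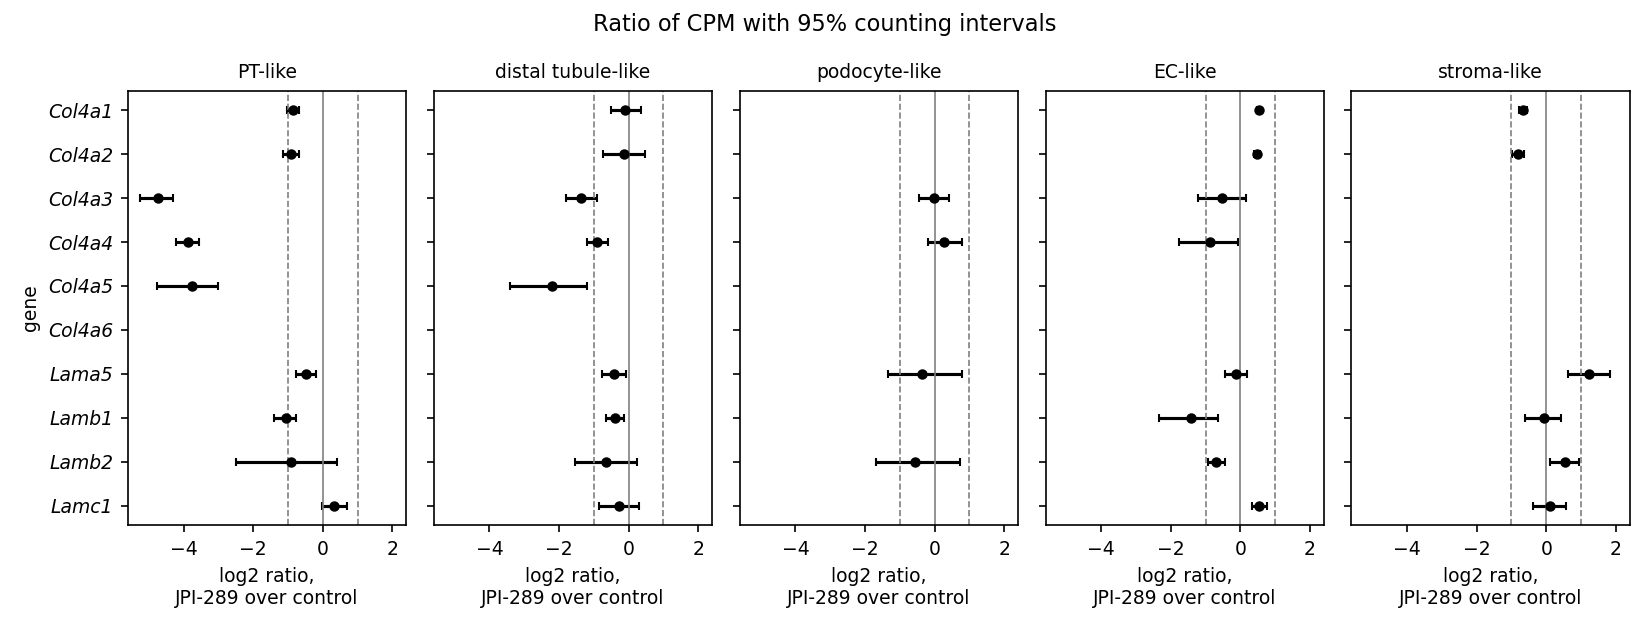
Log2 ratio of CPM, JPI-289 over control (horizontal axis), for each member with at least 20 UMIs in a class, in 5 classes. Points are ratios, bars 95% counting intervals, the solid line no difference and the dashed lines 2-fold. Col4a3, Col4a4 and Col4a5 lie far to the left in PT-like cells, at -4.74, -3.86 and -3.77, and Col4a3 and Col4a4 lie near 0 in podocyte-like cells.

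Among the collagen chains of PT-like cells, Col4a5 had 202 UMIs in the control and 13 with JPI-289, giving a log2 ratio of -3.77 (-4.75 to -3.01). Col4a4 had a ratio of -3.86 (-4.21 to -3.55), with 1323 and 82 UMIs. The JPI-289 levels of Col4a3 and Col4a5 could not be told from background. That of Col4a4, 11.1 (8.86 to 13.8) CPM, overlapped with that of neutrophil-like cells, 4.41 (1.77 to 9.08). The sizes of the Col4a3, Col4a4 and Col4a5 ratios are thus uncertain. The chains of the general network were lower as well, but by less than 2-fold in the classes used here. Col4a1 had a ratio of -0.86 (-1.03 to -0.69) and Col4a2 one of -0.91 (-1.14 to -0.68). Col4a1 and Col4a2 were past 2-fold under other ways of setting cells and clusters, at -1.47 and -1.75 with the first step of cell calling alone, -1.24 and -1.27 at resolution 0.5 and -1.32 and -1.34 with each library clustered alone. Markers of other cell types differed in both directions in PT-like cells. The 12 EC markers, all present in both libraries, summed to 59.9 CPM in the control and 24.5 with JPI-289. The 12 distal tubule markers summed to 178 and 40.1, with 10 and 8 present. The 11 collecting duct markers summed to 76.1 and 25.7, with 8 and 7 present. The 14 stroma markers summed to 54.4 and 9.51, with 13 and 6 of them present and Col1a1, Col1a2 and Lum at 0 in the JPI-289 library, and the 10 podocyte markers summed to 55.2 and 26.6, with 10 and 7 of them present. The 7 neutrophil markers summed to 30.1 and 65.6, with 5 present in both libraries and Cxcr2 at 0 in both, and the 5 red blood cell markers to 110.4 and 140.9, with 5 and 4 present. The state of the cells differed too. The 16 PT markers summed to 19770 and 12360 CPM, 9 markers of injured PT to 8731 and 13400, and the nuclear RNAs Malat1 and Neat1 to 20670 and 6547. The part of all these in the ratios was not tested.

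The PT-like clusters differed widely in these chains. In the control library Col4a3 ran from 30.6 (cluster 19) through 49.5 (cluster 2) and 130 (cluster 3) to 601 CPM in cluster 14, which was led by the PT transporters Slc5a12 and Slc13a1 together with the noncoding RNAs Gm26917 and Snhg11, and whose level of the nuclear RNA Malat1 was 156000 CPM. Cluster 14 had 231 of the 1792 cells and 449 of the 1221 Col4a3 UMIs. In the JPI-289 library the 3 PT-like clusters lay between 4.44 and 6.37 CPM. Every control PT-like cluster of over 50 cells was thus above every JPI-289 PT-like one, with no overlap of intervals. This leaves out the unnamed JPI-289 cluster 11, described below. Col4a4 ranged from 27.8 to 742 in the control clusters and from 5.47 to 16.1 in the JPI-289 clusters. Col4a1 did not separate in this way, at 25.9 to 236 and 35.1 to 90.8.

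**Figure D4:**
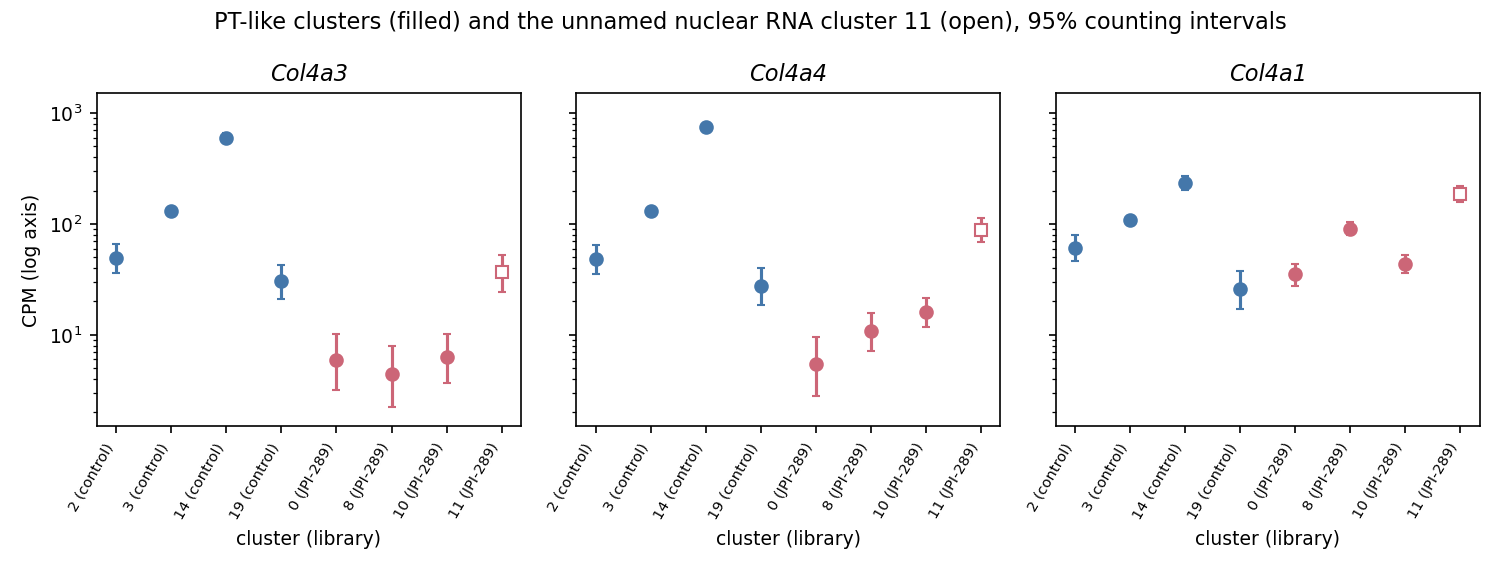
Col4a3, Col4a4 and Col4a1 in CPM (vertical log axis) in each PT-like cluster with at least 50 cells of a library (filled points, blue for control and red for JPI-289) and in the unnamed cluster 11 (open square), with 95% counting intervals. For Col4a3 all 4 control PT-like clusters, from 30.6 to 601, lie above the 3 JPI-289 PT-like clusters, from 4.44 to 6.37, whereas for Col4a1 the ranges overlap. The open square for Col4a3 lies within the range of the control clusters.

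The JPI-289 library had its own cluster of cells rich in nuclear RNA, cluster 11 with 249 cells and 236200 CPM of Malat1, which had too low a PT marker score to be named. Its Col4a3 level was 36.6 (24.3 to 52.9) CPM and its Col4a4 level 88.8 (69.0 to 113), below those of control cluster 14 and above those of the JPI-289 PT-like clusters. The Col4a3 interval held the levels of control clusters 19 and 2, and the Col4a4 level was above that of the lowest control PT-like cluster. The separation of the libraries by cluster thus holds only for clusters named PT-like. Without cluster 14, the ratio in PT-like cells was -4.22 for Col4a3 and -3.22 for Col4a4. With cluster 11 counted as PT-like it was -4.14 and -3.14. Lamb1 did not remain past 2-fold in either setting, at -0.76 and -0.78.

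To set shares of cells side by side, each cell was thinned to 1000 UMIs, and 452 control and 495 JPI-289 PT-like cells below that depth were dropped. Col4a4 was detected in 14.0% of 1340 control PT-like cells and 1.31% of 1143 JPI-289 ones (30.3% and 4.46% without thinning). Thinned neutrophil-like cells had 2.82% and 0.521%, at median depths before thinning of 2080 and 2182 UMIs against 3475.5 and 3471 in PT-like cells. Col4a5 was detected in 2.54% of control PT-like cells and in 0 of 1143 JPI-289 ones. The Clopper-Pearson interval of the latter allows a share of cells with a UMI at this thinned depth of up to 0.322%. Without thinning the Col4a5 shares were 8.98% and 0.794%. Cells with a Col4a3 UMI had a Col4a4 UMI more often than cells without one in the control PT-like class, 37.7% of 191 against 10.0%, and 28 of 30 JPI-289 podocyte-like cells with Col4a3 had both.

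In distal tubule-like cells, Col4a5 had 36 and 10 UMIs and a log2 ratio of -2.19 (-3.42 to -1.20). Its JPI-289 level there, 4.93 (2.36 to 9.06) CPM, overlapped with that of neutrophil-like cells, 1.26 (0.152 to 4.55), so the size of that ratio is uncertain. Col4a3 had 129 and 66 UMIs and a ratio of -1.36 (-1.81 to -0.92). Col4a4 was at -0.90 (-1.21 to -0.59), short of 2-fold. Col4a1 and Col4a2, at -0.09 and -0.14, had intervals that spanned 0. These cells came from 3 clusters that both libraries filled. In cluster 5, which was led by Umod and Slc12a1 of the thick ascending limb, Col4a3 was at 81.2 CPM in the control and 36.3 with JPI-289. In cluster 17, led by Slc12a3 of the distal convoluted tubule, it was at 105 and 36.2. The lower Col4a3 level thus showed in both segments. In cluster 6, with a median of only 848 UMIs per cell, Col4a3 was at 39.8 and 14.4, on 8 and 5 UMIs. In the class as a whole the 16 PT markers summed to 1591 CPM in the control and 901 with JPI-289, with 14 and 12 present, the 11 collecting duct markers to 342 and 189, with 8 present in both, and the 14 stroma markers to 62.1 and 29.6, with 5 present in both. The 7 neutrophil markers summed to 26.5 and 118, with 4 and 5 present and Ly6g at 0 in both. The part of these in the ratios was not tested.

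In podocyte-like cells, Col4a3 had a log2 ratio of -0.02 (-0.45 to 0.43) and Col4a4 one of 0.28 (-0.19 to 0.78). These intervals cover counting error only, so they cannot exclude a 2-fold difference. Lama5 was at -0.35 (-1.34 to 0.79) and Lamb2 at -0.56 (-1.67 to 0.73). These ratios rest on 13 control cells. The 10 podocyte markers summed to 16690 CPM in control and 5271 in JPI-289 podocyte-like cells, while the 7 neutrophil markers, all at 0 in the control, summed to 1422 with 4 present and Csf3r and Ly6g at 0. Malat1 and Neat1 summed to 128600 CPM in control and 184800 in JPI-289 podocyte-like cells. In PT-like, distal tubule-like, EC-like and stroma-like cells they ran from 6547 to 37970. The part of all these in the levels and ratios of podocyte-like cells was not tested. When podocytes were set per cell by at least 3 detected markers (Podxl left out), 45 control and 35 JPI-289 cells qualified and the ratios of Col4a3 and Col4a4 were 1.43 and 1.07. Those of Lama5 and Lamb2 were then 1.28 and 0.81, and at resolution 0.5 they were 1.24 and 1.21, so no direction is given for any of the 4 members in podocytes.

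In EC-like cells the general collagen IV network was higher in the JPI-289 library. Col4a1 had a log2 ratio of 0.53 (0.47 to 0.59), Col4a2 one of 0.48 (0.40 to 0.56) and Lamc1 one of 0.55 (0.34 to 0.76). The endothelial clusters were filled unevenly. Cluster 18, led by Igfbp3, Kdr and Emcn and holding 187 JPI-289 and 5 control cells, had Col4a1 at 4104 CPM, and cluster 13, led by Plvap and holding 207 control and 34 JPI-289 cells, had 1918 in the control. In cluster 4, the one that both libraries filled with 293 and 344 cells, Col4a1 was at 2048 and 1852 and its ratio was -0.15, so the higher level was not seen there. Col4a2 in cluster 4 had a ratio of 0.03 and Lamc1 one of 0.30. The uneven clusters and the ratio over all EC-like cells cannot be told apart. Markers of other cells differed as well. In EC-like cells the 14 stroma markers summed to 363 CPM in the control and 98.7 with JPI-289, with 12 and 7 present and Lum at 0 in both, the 16 PT markers to 2068 and 887, with 15 and 11 present, and the 10 podocyte markers to 897 and 521, with 6 present in both. The 5 red blood cell markers summed to 109.6 and 1362, with 4 and 5 present, and the 9 markers of injured PT to 2720 and 6258, all present in both. The part of these in the ratios of EC-like cells, Lamb1 and Lamb2 included, was not tested.

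In stroma-like cells, a single cluster led by the mural cell genes Ren1 and Acta2 and the fibrillar collagen gene Col3a1, Col4a1 and Col4a2 were lower in the JPI-289 library. Their log2 ratios were -0.66 (-0.77 to -0.54) and -0.81 (-0.98 to -0.65), both short of 2-fold. Col4a3 and Col4a4 had 10 and 9 UMIs in the control and 7 and 5 in the JPI-289 library, at the level of background. The 14 stroma markers were themselves lower, 26620 against 16300 CPM, and the 7 neutrophil markers summed to 10.5 and 625, with 1 and 4 of them present and Csf3r and Ly6g at 0 in both. Malat1 and Neat1 summed to 11730 CPM in control and 21050 in JPI-289 stroma-like cells. The part of all these in the ratios was not tested.

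The laminin chains had a layout of their own. The beta chains split by class, with Lamb2 the larger share in podocyte-like and EC-like cells and Lamb1 in the tubular classes. Stroma-like cells held both. Lamb2 took all 10 beta-chain UMIs of control podocyte-like cells and 21 of 22 in JPI-289 ones. It took 88.5% (85.3 to 91.3) and 92.9% (88.9 to 95.8) in EC-like cells, 53.2% (46.6 to 59.8) and 63.3% (54.3 to 71.6) in stroma-like cells, and 9.47% (6.22 to 13.7) and 8.11% (5.09 to 12.1) in distal tubule-like cells. It took 24.6% (18.7 to 31.3) and 18.6% (12.8 to 25.6) in collecting duct-like cells. In PT-like cells it took 5.16% (2.91 to 8.36) and 5.56% (2.26 to 11.1). The PT-like Lamb2 levels, 1.85 and 0.951 CPM, lay within the intervals of neutrophil-like cells, 2.30 (0.058 to 12.8) and 1.26 (0.15 to 4.55). They could not be told from background. In each of these classes the intervals of the Lamb2 share overlapped between the libraries, unlike those of the Col4a3 to Col4a5 share in tubular and EC-like cells.

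**Figure D5:**
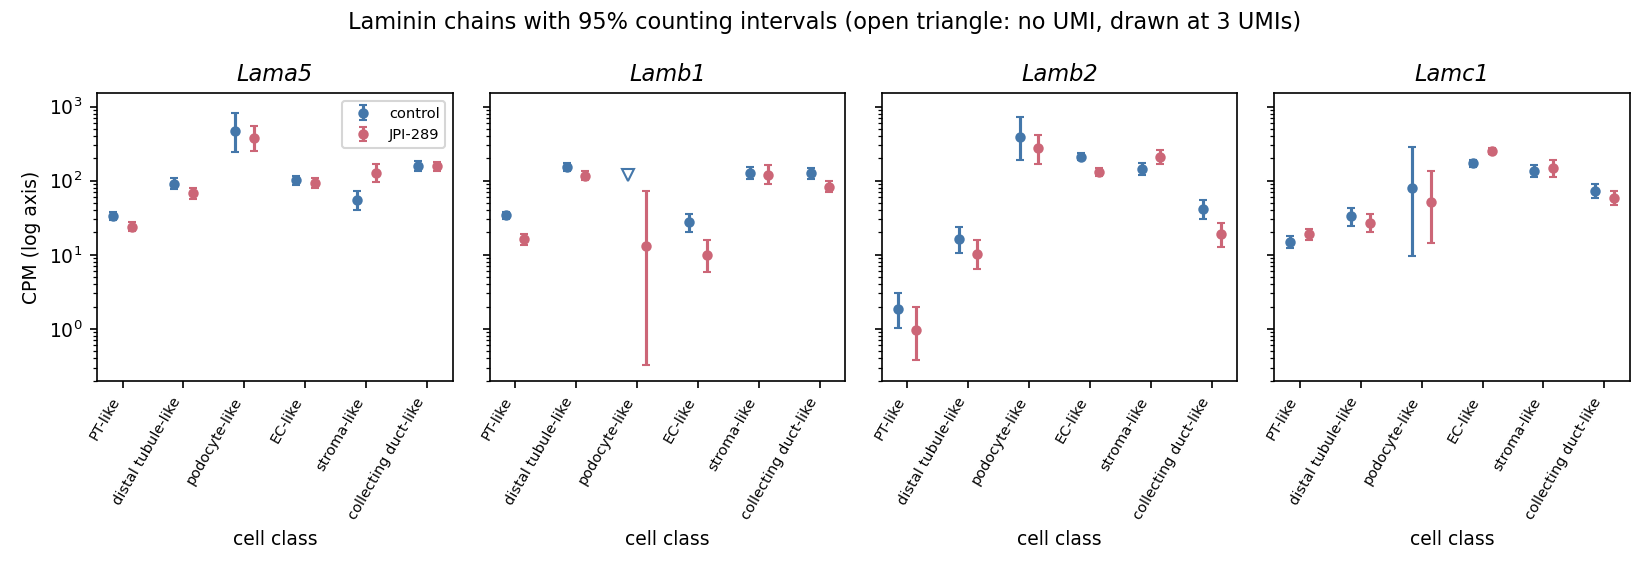
Lama5, Lamb1, Lamb2 and Lamc1 in CPM (vertical log axis) in 6 cell classes of the control (blue) and JPI-289 (red) libraries, with 95% counting intervals. An open triangle marks no UMI, drawn at the level of 3 UMIs. Lamb2 is lowest in PT-like cells, at 1.85 and 0.951, and highest in podocyte-like cells, at 394 and 274, whereas Lamb1 is at 0 or 1 UMI in podocyte-like cells.

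Lama5, the alpha chain, was highest in podocyte-like cells at 472 (244 to 825) and 378 (253 to 543) CPM, followed by collecting duct-like cells at 159 and 156. EC-like cells had 101 (87.4 to 116) and 92.9 (79.0 to 108). Distal tubule-like cells had 91.2 (76.8 to 108) and 68.0 (57.1 to 80.3), which overlap with endothelium in both libraries. In stroma-like cells Lama5 was at 54.7 (40.2 to 72.8) in the control and 129 (95.4 to 169) with JPI-289, giving a log2 ratio of 1.23 (0.63 to 1.84) on 47 and 50 UMIs. It was the 1 member at least 2-fold higher in any of the 5 classes, and with each cell weighted equally the ratio was 0.80. In PT-like cells its ratio was -0.47 (-0.76 to -0.20), but 131 of the 271 control UMIs were in cluster 14, and without that cluster the ratio was 0.34.

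Lamb1 was at 155 (136 to 176) and 117 (103 to 133) CPM in distal tubule-like cells, its highest class in the control, and overlapped there with stroma-like cells at 127 and 121 and collecting duct-like cells at 125 in the control. Cluster 17 of the distal tubule had 263 and 202. In PT-like cells it was at 34.0 and 16.2, with the log2 ratio at -1.07 (-1.40 to -0.76). Among EC-like cells it had 54 and 17 UMIs and a ratio of -1.43 (-2.34 to -0.65), the 1 member past 2-fold there. Its EC-like level in the JPI-289 library, 9.99 (5.82 to 16.0), overlapped with that of neutrophil-like cells at 5.67 (2.59 to 10.8).

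Lamb2 had 417 and 223 UMIs in EC-like cells, at 212 (192 to 233) and 131 (114 to 149) CPM, a log2 ratio of -0.69 (-0.93 to -0.45). In cluster 4 alone that ratio was -0.26. In stroma-like cells Lamb2 was higher in the JPI-289 library, at 208 (165 to 259) against 144 (120 to 172), a ratio of 0.53 (0.11 to 0.94), but it was -0.21 when only barcodes of the first step of cell calling were used. Lamc1, the gamma chain, was highest in EC-like cells at 170 (153 to 190) and 249 (226 to 274), next in stroma-like cells at 136 and 147, and lowest of the 3 tubular classes in PT-like cells at 15.0 (12.5 to 18.0) and 18.9 (15.9 to 22.3). It was the 1 member with a ratio above 0 in PT-like cells, 0.33 (-0.03 to 0.69), with an interval that spans 0. Its control PT-like level lay within the interval of control neutrophil-like cells, 9.20 (2.51 to 23.5) CPM, and so could not be told from background. The size of that ratio is thus uncertain.

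Of the 49 other basement membrane genes, 34 were measured in PT-like cells. There 14 were at least 2-fold lower and 0 higher, with the background shares given above, and their median log2 ratio was -0.77. Among 9 linkers and proteoglycans 6 were lower, among 11 chain-processing and cross-linking genes 3, among 8 receptors 2, among 3 other laminin chains 2 (Lama1 and Lama3, named after their values were seen) and among 3 proteases and inhibitors 1. Timp3, an inhibitor of metalloproteinases, had 5845 and 1850 UMIs and a ratio of -1.52 (-1.60 to -1.44). Itga1, an integrin subunit that binds collagen IV, was at -2.89 (-3.42 to -2.43), Npnt, a basement membrane ligand of integrins, at -2.76 (-3.31 to -2.29) and P3h2, a prolyl hydroxylase that acts on collagen IV, at -1.85 (-2.23 to -1.50). The limits given above for the members in PT-like cells hold here too. The part of cluster 14, of nuclear RNA and of the markers of other cell types in these ratios was not tested.

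In distal tubule-like cells 9 of 29 measured genes were lower (background 11.8%) and 0 higher (background 6.04%), with a median of -0.68. Col18a1, a proteoglycan collagen, had a ratio of -1.003 (-1.27 to -0.74), Ddr1, a collagen receptor, -1.20 (-1.58 to -0.83), Serpinh1, the collagen chaperone, -1.25 (-1.68 to -0.83) and Itga3, a laminin-binding integrin subunit, -1.77 (-2.40 to -1.20). In stroma-like cells 8 of 34 were lower (background 14.0%) and 1 higher (background 11.9%), with a median of -0.51. Sparc, a collagen-binding matrix protein, was at -1.31 (-1.42 to -1.20), Serpinh1 at -1.07 (-1.31 to -0.84), Cd151, a tetraspanin that pairs with laminin-binding integrins, at -1.46 (-1.96 to -1.02) and Col15a1, a relative of Col18a1, at -1.86 (-2.52 to -1.30). Of the 12 chain-processing genes measured there 2 were lower and 1 higher, and of the 9 receptors 4 were lower and 0 higher.

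In EC-like cells 4 of 35 were lower and 1 was higher, where 18.6% of all genes were lower and 5.15% higher, with a median of -0.29 against -0.17 for all genes. Nid1, which links the laminin and collagen IV networks, had 600 and 1049 UMIs and a ratio of 1.02 (0.87 to 1.17). It was at 1007 CPM in cluster 18 and at 269 and 369 in cluster 4, so its level was highest in the cluster that few control cells joined. Col18a1 had a ratio of -1.17 (-1.45 to -0.89) and was also lower in cluster 4, at 318 and 121 CPM. Plod1, a lysyl hydroxylase, was at -1.16 (-1.52 to -0.81), Lama4, the other endothelial alpha chain, at -1.01 (-1.40 to -0.64) and Timp2 at -1.34 (-2.02 to -0.73). In podocyte-like cells 7 of 11 were lower (background 15.2%) and 0 higher (background 17.6%), among them Sparc at -2.71 (-3.36 to -2.11), Timp3 at -1.40 (-2.10 to -0.69) and P3h2 at -1.37 (-2.22 to -0.49). Beside these, the 12 EC markers summed to 866 CPM in control podocyte-like cells, with 4 present, and to 65.2 in JPI-289 ones, with 0 present, and the 9 markers of injured PT to 3346 and 10890, with 4 and 7 present. Krt20, Krt18, Vcam1 and Sox9 were at 0 in the control and Vcam1 alone with JPI-289. The podocyte markers were lower too, as given above, and the part of these in the ratios was not tested. These ratios rest on the same 13 control cells as those of the members. How they depend on the way podocytes are set was not tested, so they are no firmer than the ratios of the members there. Lmx1b, a podocyte transcription factor known to act on Col4a3 and Col4a4, had at most 3 UMIs in any class of either library.

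The genes with the pattern most like each member over the 16 points, by Pearson correlation of log2(CPM + 1), were partly members themselves. Col4a1 was nearest to Col4a2, then Ltbp4 (0.98) and Hrct1 (0.98), and Col4a2 to Col4a1, then Hrct1 (0.99) and Apold1 (0.97). Col4a3 was nearest to Dmtn (0.90), Vps13a (0.88) and Baiap2l2 (0.87), and Col4a4 to genes that included Clcn3 and Glis2 (both 0.96). Its correlation with Col4a3 itself was 0.72 over these points, which leave out podocytes because only 13 control cells were found. Col4a5 was nearest to Tln2 (0.93), Csrp2 (0.92) and Fam13a (0.91). For the laminins these were Clstn1 (0.96), Lzts2 (0.95) and Cttn (0.94) for Lama5, Fat1 (0.94), Tead3 and Ndrg2 (both 0.93) for Lamb1, Serpinh1, Nrarp and Amotl1 (all 0.95) for Lamb2, and Nrarp and Dcbld2 (both 0.95) were among those for Lamc1. Lamb2 and Lamc1 correlated with Col4a1 at 0.90 each, and Col4a1 with Col4a3 at 0.25.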

How the data were processed

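Single-cell suspensions of kidney from 2 mice were run with a 10x Genomics 5′ kit. The authors deposited UMI counts per gene and barcode, made with Cell Ranger 5.0.1 on mm10 according to the submitters' processing notes, with empty barcodes included. The files held 38328760 (control) and 35548396 (JPI-289) UMIs. Whether intronic reads were counted is not given in the sources used here. Cells were called by a barcode rank threshold followed by a test against the profile of empty barcodes (minimum 500 UMIs, false discovery rate 0.01), and cells with over 50% mitochondrial UMIs were left out, as in the study, leaving 3748 and 5022 cells with median depths of 2060 and 1873 UMIs. Scrublet marked 2 of 8770 cells as doublets and so had not worked. The 438 cells with the highest scores were left out as an alternative. Counts were scaled to 10000 per cell, logged, reduced to 2000 variable genes and 30 principal components, and clustered by Leiden (resolution 1, scanpy 1.11.5, leidenalg 0.10.2), without the public data or batch correction of the study. Cluster names came from marker lists, but the score needed for a name was set after the clusters were seen.

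UMIs were summed per class and library. With 1 library per group no test was made. Intervals are exact (Poisson for levels, Clopper-Pearson for shares and ratios, 95%) and cover counting error only. The ratio and interval steps were tested on simulated counts. A level needs 3 UMIs to count as present. All members were described. Of the 49 related genes, those at least 2-fold apart with at least 50 UMIs were named, up to 4 per class and direction with the most UMIs. The 3 genes of most similar pattern were taken from genes with at least 200 UMIs over classes of at least 50 cells in both libraries. Of these, 2 are not reported here. The members and lists were chosen with earlier results of these data known. Sequences came from RefSeq and positions from GENCODE vM21, whose gene identifiers matched those of the files for all 10 members.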

Additional observations from a re-analysis of the deposited data

Results flagged for a closer look

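For 4 members the ratio of the libraries (log2, JPI-289 over control) lay below 0 in at least 1 cell class and above 0 in another, with a counting interval clear of 0 in both. The differences between classes were not tested, because each group is 1 library. Col4a1 was at -0.86 in PT-like and 0.53 in EC-like cells, and Col4a2 at -0.91 and 0.48. In stroma-like cells Col4a1 and Col4a2 were also below 0, at -0.66 and -0.81. Lama5 was at -0.47 in PT-like, -0.42 in distal tubule-like and 1.23 in stroma-like cells. Lamb2 was at -0.69 in EC-like and 0.53 in stroma-like cells. Among EC-like cells of cluster 4 alone the ratios of Col4a1 and Col4a2 were -0.15 and 0.03, and without cluster 14 that of Lama5 in PT-like cells was 0.34. That of Lamb2 in stroma-like cells was -0.21 with the first step of cell calling alone.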

How the results depend on the processing

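No paired analysis was possible because each group holds 1 library. Over all alternatives the log2 ratio in PT-like cells stayed between -4.87 and -4.14 for Col4a3, between -3.92 and -3.14 for Col4a4 and between -3.87 and -3.22 for Col4a5, and in distal tubule-like cells between -1.46 and -1.09 for Col4a3. No ratio that was past 2-fold in the main setting changed sign. Some that were short of 2-fold there did, among them podocyte-like ratios given above. Lamb2 in PT-like cells was at -1.65 with each library clustered alone and at 0.003 with clusters 14 and 11 both counted. The number of members at least 2-fold lower in PT-like cells went from 4 to 7 with each library clustered alone. It was 6 with the first step of cell calling alone, at resolution 0.5 and with at most 20% mitochondrial UMIs, and 3 with at least 1000 UMIs per cell, with ratios centred on the median of all genes, without cluster 14 and with clusters 14 and 11 both counted. In distal tubule-like cells it went from 2 to 1 with at least 100 UMIs per gene. In EC-like cells it went from 1 to 2 with the first step of cell calling alone and with at least 5 UMIs per gene, to 3 with equal weight of each cell and with the shared cluster alone, and to 0 with at least 100 UMIs per gene. In stroma-like cells 1 was lower with at least 5 UMIs per gene, and the 1 higher member was lost (0) with equal weight of each cell and with at least 100 UMIs per gene. In podocyte-like cells 1 was lower and 3 higher at resolution 0.5 and with podocytes set per cell, and 2 were lower with at least 5 UMIs per gene. With the first step of calling alone no podocyte-like class was found, so it gave no value. The raised UMI minimum removes members by construction. For the rest the cause was not tested. The settings without cluster 14, with cluster 11, with the shared endothelial cluster alone and with podocytes set per cell were chosen after seeing the data. Depth limits Col4a5, Col4a6 and the podocyte-like cells most.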
